A study of Homo sapiens with 24 samples.

Results

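HuCCT1, an established human cell line from an intrahepatic cholangiocarcinoma (a cancer of the bile ducts inside the liver), was treated for 72 h with 1.25 µM sorafenib, and its messenger RNA was compared with that of HuCCT1 cells given vehicle. The comparison rests on 6 libraries of 24 in all, 3 with 1.25 µM sorafenib and 3 with vehicle, picked by their labels for line and treatment and by no measured value. Both other HuCCT1 groups, also 3 libraries each, received either the higher dose of 10 µM or the low dose together with 1 µM of IACS-010759, an inhibitor of respiratory complex I. OCUG-1, a gallbladder cancer line, was given the same 4 treatments. Vehicle was DMSO at up to 0.1%, and HuCCT1 was grown in RPMI-1640 and OCUG-1 in DMEM, so line and medium cannot be told apart. Each group is 1 line in culture, and the labels call its replicates independent.

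Sorafenib is an oral kinase inhibitor that blocks RAF kinases and several receptor tyrosine kinases, among them those for VEGF and PDGF, and it also impairs mitochondrial respiration in several cell types. RAF carries growth signals from RAS to MEK and ERK, and ERK raises immediate-early genes and G1 cyclins. Late in G1, phosphorylated RB releases E2F factors, which raise the genes of DNA replication. The DREAM and MYB-MuvB complexes control genes of mitosis through a short promoter element called CHR, often paired with CCAAT boxes.

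The 6 libraries held between 18238834 and 28036008 counts. The genes that define biliary epithelium were abundant: the 14 markers summed to between 11599 and 13440 CPM (counts scaled to a common library size) with 1.25 µM sorafenib and between 10090 and 11905 CPM in vehicle. Of these 14, 4 were called higher and 2 lower with 1.25 µM sorafenib, and 4 lower under library size scaling. The 10 leukocyte markers summed to at most 5.96 CPM in any library, with MS4A1 at 0 in all 6, and the 8 endothelial markers to at most 6.18 CPM, with KDR at 0 in all but vehicle replicate 3 (0.0423 CPM). Among 10 hepatocyte markers SERPINA1 was the only abundant one and ALB stayed under 1 CPM in every library. The 10 fibroblast markers summed to between 45.5 and 57.8 CPM with 1.25 µM sorafenib and between 45.4 and 62.1 CPM in vehicle, with COL1A2 at 0 and COL1A1 and LUM the most abundant. Replicate 3 stood apart from replicates 1 and 2 in both groups, since a chi-square test of its counts against theirs, divided by its degrees of freedom, gave 43.8 and 58.9 with 1.25 µM sorafenib and 43.7 and 58.4 in vehicle, while replicates 1 and 2 gave 6.08 with 1.25 µM sorafenib and 13.5 in vehicle. Counts from the mitochondrial genome made up 21.8%, 19.4% and 12.5% of the libraries with 1.25 µM sorafenib and 11.8%, 14.1% and 7.08% of those with vehicle.

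Of 19576 genes tested with edgeR's quasi-likelihood test, 3616 (18.5%) changed at an adjusted p under 0.05, with 1953 (9.98%) higher and 1663 (8.5%) lower with 1.25 µM sorafenib. Most changes were small. Of the called genes, 683 (3.49% of those tested) differed by 2-fold or more, 412 of them higher and 271 lower, and 1724 differed by less than 1.5-fold. In 3345 of the 3616 called genes the 3 libraries of one group all lay beyond the 3 of the other, while over all tested genes 17.2% lay apart upward and 16.6% downward. The median log2 fold change over all tested genes was 0.003. Scaling by library size alone in place of TMM moved that median by -0.145 and gave 1126 higher and 3097 lower, so that 26.7% of the calls were higher against 54% under TMM. The count also rested on single libraries: it came to 1926 when 1.25 µM replicate 1 was left out, 1710 for 1.25 µM replicate 2, 2090 for vehicle replicate 1 and 2361 for vehicle replicate 3, and 5956 without number 3 of every HuCCT1 group. No gene called under both TMM and any of these settings changed direction. A log2 fold change is 1.25 µM sorafenib over vehicle throughout unless another pair is named, the value after ± is its standard error, and adjusted p-values are edgeR's over all tested genes.

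**Figure D1:**
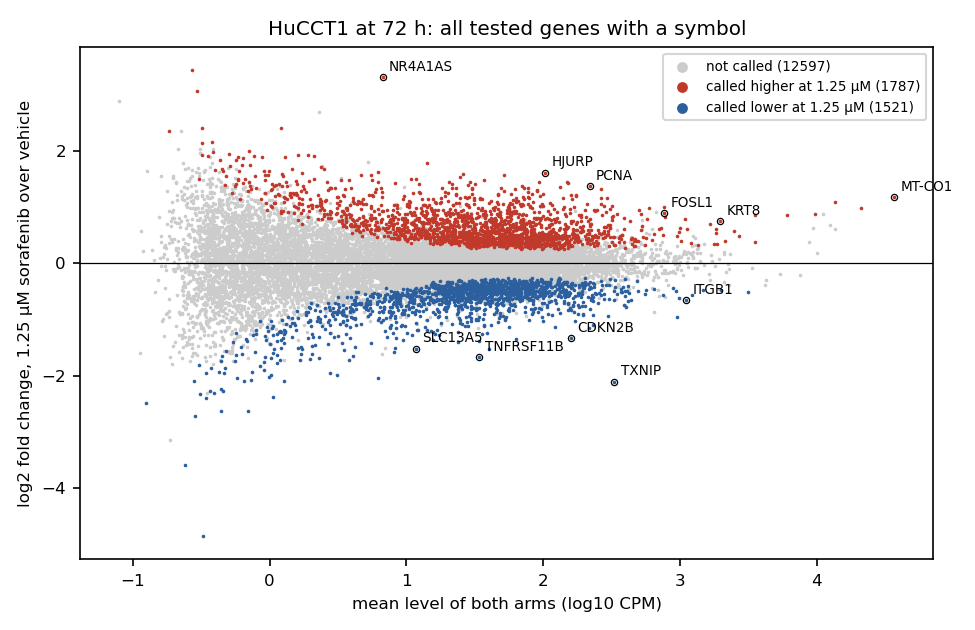
Each point is 1 of the tested genes that has a symbol. The horizontal axis is its mean CPM over both groups, on a logarithmic scale. The vertical axis is its log2 fold change, 1.25 µM sorafenib over vehicle in HuCCT1. The 1787 called higher and 1521 called lower are coloured, and 12597 not called are grey; TXNIP lies far below the bulk of genes of its level and NR4A1AS is the highest of the labelled points.

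Genes of mitosis rose together. Of 25 genes for the spindle checkpoint and mitotic kinases, 21 rose and none fell, with a median log2 fold change of 0.93. Among 33 genes of the centromere and kinetochore 28 rose and none fell, with a median of 0.86, and among 25 genes for kinesins, the spindle and cytokinesis 19 rose and none fell, with a median of 0.91. These shares stand beside the 9.98% of all tested genes called higher and the 12.5% of tested protein-coding genes. In a bulk library, more cells in one phase of the cycle and more of a transcript per cell cannot be told apart.

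HJURP, the chaperone that loads CENP-A at centromeres, had the largest rise among protein-coding genes that averaged 10 CPM or more in one group. It lies on chromosome 2 (GRCh38 chr2:233833416-233854566, minus strand, GENCODE annotation). HJURP was at 171, 166 and 132 CPM with 1.25 µM sorafenib and at 46.2, 55.3 and 51.6 CPM in vehicle, a log2 fold change of 1.61 ± 0.16 (adjusted p = 1.59e-05). The lowest treated library held more than 2-fold the level of any vehicle library. SPC24, a subunit of the NDC80 kinetochore complex, was at 60.9, 58.6 and 42.99 CPM with 1.25 µM sorafenib and 15.7, 22.1 and 20.6 CPM in vehicle (1.48 ± 0.23, adjusted p = 0.000913). CENPU, of the constitutive centromere network, was at 82.02, 77.5 and 59.6 CPM with 1.25 µM sorafenib, against 28.6, 32.8 and 28.3 CPM in vehicle (1.29 ± 0.12). In both genes treated replicate 3 was the lowest of the treated libraries and still above every vehicle library. CENPM, ZWINT and DSN1, also of the centromere and kinetochore, rose with log2 fold changes of 1.23, 1.23 and 0.86.

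Inhibitory and activating arms of mitotic control rose side by side. CDCA3, a trigger of mitotic entry that promotes loss of WEE1, was at 162, 137 and 113 CPM with 1.25 µM sorafenib and 50.2, 52.2 and 48.8 CPM in vehicle (1.45 ± 0.22, adjusted p = 0.000735). PKMYT1, the membrane kinase that holds CDK1 inactive, was at 42.04, 39.97 and 45.9 CPM with 1.25 µM sorafenib and 19.4, 17.8 and 21.6 CPM in vehicle (1.12 ± 0.12). For MASTL, which restrains the phosphatase opposing CDK1, the treated libraries held 33.8, 34.8 and 33.4 CPM and the vehicle libraries 14.1, 14.4 and 17.04 CPM (1.16 ± 0.13). None of these 3 genes had overlapping groups. CDK1 itself was at 221, 237 and 211 CPM with 1.25 µM sorafenib, against 92.1, 102 and 107 CPM in vehicle (1.15 ± 0.16, adjusted p = 0.00029). Among genes that end mitosis, PTTG1 (securin, the inhibitor of separase) was at 238, 227 and 188 CPM with 1.25 µM sorafenib and 74.4, 83.8 and 82.5 CPM in vehicle (1.44 ± 0.17), and ESPL1 (separase) at 67.4, 65.3 and 62.6 CPM with sorafenib and 22.9, 28.1 and 33.5 CPM in vehicle (1.21 ± 0.20). UBE2C and UBE2S, the ubiquitin-conjugating enzymes that work with the anaphase-promoting complex, rose with log2 fold changes of 1.36 and 0.95, and its activator CDC20 rose with 0.96. Of the 19 members of that complex and its partners 6 rose and none fell, with a median of 0.26, and 10 rose without number 3 of every group.

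The motors and the chromatid machinery moved in the same direction. KIF18B, a microtubule depolymerase, was at 103, 102 and 93.3 CPM with 1.25 µM sorafenib and 40.1, 43.7 and 47.9 CPM in vehicle (1.18 ± 0.18), and KIF15, a spindle motor, was at 29.4, 32.03 and 32.6 CPM with sorafenib and 12.4, 13.8 and 18.5 CPM in vehicle (1.07 ± 0.13). CIT, the citron kinase of the midbody, rose with 1.10, KIFC1 with 1.15 and KIF2C with 1.06. KIF20A, a motor of the central spindle, was at 245, 233 and 189 CPM with 1.25 µM sorafenib and 67.8, 88.2 and 91.5 CPM in vehicle (1.43 ± 0.33, adjusted p = 0.0119), and its adjusted p was 0.0707 when genes of low counts were kept in the fit. Of 23 condensin and cohesin genes 11 rose and 1 fell (3 under library size scaling), with NCAPG of condensin I at 123, 122 and 107 CPM with 1.25 µM sorafenib and 46.2, 46.9 and 56.4 CPM in vehicle (1.23 ± 0.20). Among members that did not pass the test, PLK1 was at 41.8, 48.5 and 76.1 CPM with 1.25 µM sorafenib and 30.1, 25.8 and 50.03 CPM in vehicle, FOXM1 at 86.9, 91.8 and 141 CPM with sorafenib and 69.3, 55.1 and 119 CPM in vehicle, and ECT2 at 67.2, 76.8 and 127 CPM with sorafenib and 85.8, 65.1 and 125 CPM in vehicle. In all 3, replicate 3 was the highest library of its own group.

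**Figure D2:**
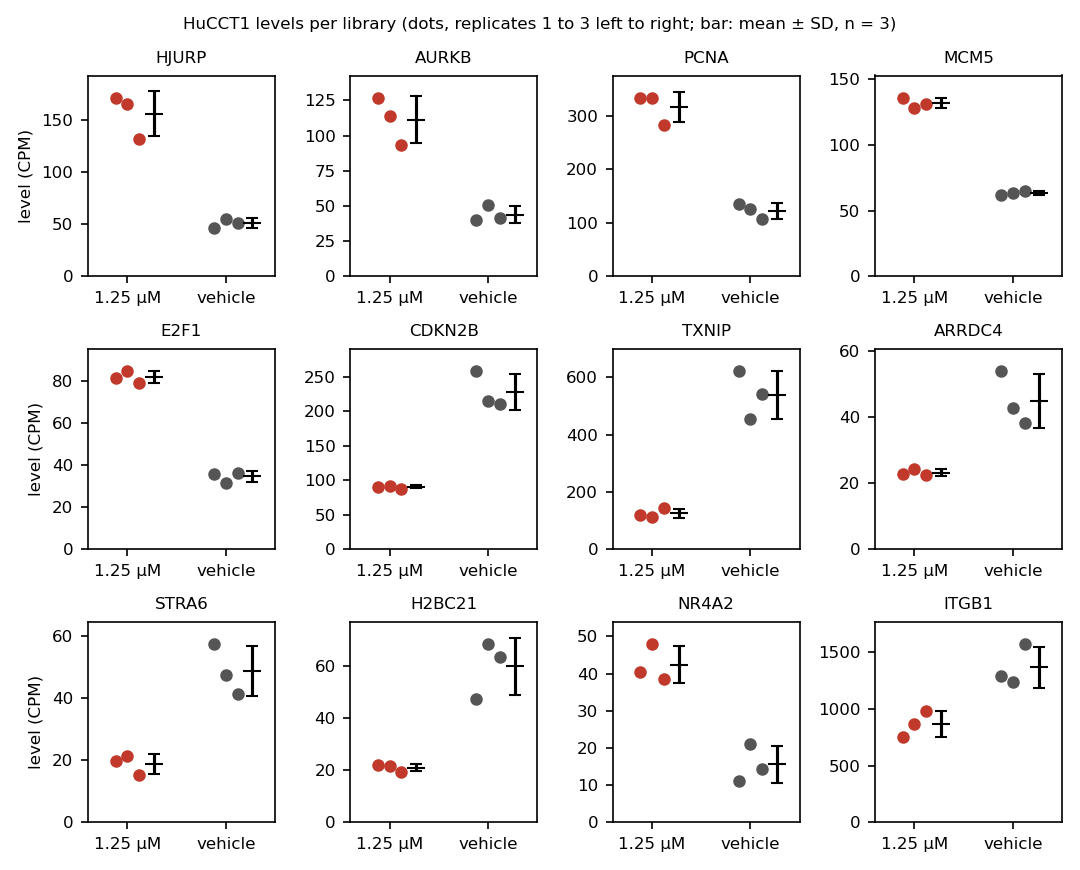
Points are the CPM of 12 genes in each of the 3 libraries with 1.25 µM sorafenib (left in each panel) and the 3 with vehicle (right), with the mean and SD as bars. HJURP, AURKB, PCNA, MCM5, E2F1 and NR4A2 lie higher with 1.25 µM sorafenib, and CDKN2B, TXNIP, ARRDC4, STRA6, H2BC21 and ITGB1 lie lower, without overlap of the groups.

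Promoters of the leading mitotic genes are shown because their members moved together. The stretch from 250 bases before to 50 bases after the annotated start (RefSeq, GRCh38.p14) is printed in the gene's own direction, with capitals for the CHR letters TTTGAA or TTCGAA and for CCAAT, each searched on both strands. The HJURP window is chr2:233854486-233854785, minus strand, and the CDCA3 window is chr12:6851237-6851536, minus strand.
HJURP: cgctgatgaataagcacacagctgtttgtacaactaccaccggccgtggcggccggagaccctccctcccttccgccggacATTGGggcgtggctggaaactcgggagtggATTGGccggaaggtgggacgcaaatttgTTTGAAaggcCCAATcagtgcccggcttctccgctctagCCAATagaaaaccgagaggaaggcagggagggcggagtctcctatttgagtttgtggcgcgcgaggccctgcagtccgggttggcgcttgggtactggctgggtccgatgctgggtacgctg
CDCA3: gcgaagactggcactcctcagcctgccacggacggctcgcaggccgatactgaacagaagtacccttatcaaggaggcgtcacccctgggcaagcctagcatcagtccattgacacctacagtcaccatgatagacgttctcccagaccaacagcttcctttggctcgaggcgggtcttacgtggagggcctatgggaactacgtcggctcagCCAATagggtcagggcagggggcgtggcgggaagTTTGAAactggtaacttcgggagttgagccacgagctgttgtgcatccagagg
Counted from the gene's start, TTTGAA begins at -111 in the HJURP window, among 4 CCAAT boxes at -169, -139, -101 and -72, of which the 2 farthest from the start lie on the other strand. In the CDCA3 window TTTGAA begins at -3 and a CCAAT box at -37. CHR letters were found in 20 of 23 promoters (87%) of the list of kinesins, spindle and cytokinesis genes, in 10 of 18 (55.6%) of the spindle checkpoint list and in 14 of 27 (51.9%) of the centromere list that had an entry. The share was 11.4% of 10868 tested protein-coding genes and 16.6% of all 27305 promoters of the table. It was 16.5% of protein-coding genes called higher and 9.4% of those called lower. Clustered core histone genes, whose called members mostly fell, held CHR letters in 12 of 30 promoters (40%). A match describes the letters alone.

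DNA replication genes rose as well. Of 28 genes for origin licensing and the replicative helicase 24 rose and none fell, with a median log2 fold change of 0.88, and of 37 genes for DNA polymerases and the replication fork 31 rose and none fell, with a median of 0.77. TICRR, which brings CDC45 to origins, was at 36.2, 31.8 and 28.6 CPM with 1.25 µM sorafenib and 12.8, 13.3 and 14.9 CPM in vehicle (1.23 ± 0.11, adjusted p = 9.24e-06). CDC45, a component of the replicative helicase, was at 40.2, 34.2 and 37.2 CPM with 1.25 µM sorafenib, against 16.8, 15.3 and 16.9 CPM in vehicle (1.19 ± 0.11, adjusted p = 1.59e-05). PCNA, the sliding clamp of the polymerases, was at 334, 333 and 284 CPM with 1.25 µM sorafenib and 135, 127 and 106 CPM in vehicle (1.37 ± 0.17, adjusted p = 0.000109). Every treated library of these 3 genes lay above every vehicle library. PCLAF, a small protein bound to PCNA, was at 44.5, 43.6 and 28.4 CPM with 1.25 µM sorafenib and 13.6, 14.2 and 10.7 CPM in vehicle (1.60 ± 0.22). LIG1, the ligase of Okazaki fragments, rose with 1.10, POLA2 of the primase complex with 1.04, RFC4 of the clamp loader with 0.96 and CDC6 of the licensing complex with 1.06. MCM2, a helicase subunit, did not pass the test, at 18.7, 19.7 and 56.2 CPM with 1.25 µM sorafenib and 22.1, 19.4 and 48.3 CPM in vehicle (0.07 ± 0.45, adjusted p = 0.935), with replicate 3 far above the others in both groups.

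Fewer genes of nucleotide supply took part. Of 28 genes 12 rose and none fell, with a median of 0.23. TK1, the thymidine salvage kinase of S phase, was at 224, 223 and 229 CPM with 1.25 µM sorafenib and 92.3, 94.98 and 103 CPM in vehicle (1.22 ± 0.13, adjusted p = 3.09e-05). RRM2, the regulated subunit of ribonucleotide reductase, was at 203, 210.3 and 257 CPM with 1.25 µM sorafenib and 107, 89.8 and 138 CPM in vehicle (1.00 ± 0.16). SHMT1 and NME1, of folate and nucleoside phosphate metabolism, rose with 0.95 and 1.09. Repair by homologous recombination and the Fanconi anaemia pathway had 27 of 35 genes higher, none lower and a median of 0.80. EME1, a subunit of a structure-specific nuclease, was at 33.8, 31.99 and 24.9 CPM with 1.25 µM sorafenib and 11.03, 12.2 and 10.2 CPM in vehicle (1.45 ± 0.13, adjusted p = 1.15e-05), and the helicase BLM was at 29.1, 29.98 and 25.5 CPM with sorafenib and 10.6, 12.1 and 12.9 CPM in vehicle (1.25 ± 0.12). BARD1, the partner of BRCA1, rose with 1.11, EXO1 with 1.04 and FANCI with 1.02.

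The regulators that stand above these genes divided between both directions. Of 36 tested genes for G1 cyclins, RB and E2F 13 rose and 3 fell, with a median of 0.20, and 7 fell under library size scaling, 6 without number 3 of every group and 5 with DESeq2 or without 1.25 µM replicate 3. The activator E2F1 was at 81.4, 84.96 and 79.3 CPM with 1.25 µM sorafenib and 36.02, 31.8 and 36.5 CPM in vehicle (1.23 ± 0.09, adjusted p = 4.03e-06). E2F2 was at 10.6, 7.94 and 8.71 CPM with 1.25 µM sorafenib and 2.90, 3.96 and 3.21 CPM in vehicle (1.44 ± 0.19), and E2F8, an atypical repressor of the family, at 18.7, 16.3 and 19.2 CPM with sorafenib and 8.91, 6.24 and 9.26 CPM in vehicle (1.14 ± 0.17). MYBL2, the MYB factor of the G2/M programme, was at 82.6, 82.4 and 102 CPM with 1.25 µM sorafenib, against 38.5, 34.1 and 51.2 CPM in vehicle (1.11 ± 0.14). CDKN2B, the CDK4 and CDK6 inhibitor p15, fell. It was at 90.9, 92.2 and 88.1 CPM with 1.25 µM sorafenib and 258, 215 and 210.2 CPM in vehicle (-1.33 ± 0.10, adjusted p = 4.03e-06), and no treated library reached any vehicle library. CDKN2D, the related inhibitor p19, was higher, at 21.8, 21.1 and 19.6 CPM with 1.25 µM sorafenib and 10.7, 11.6 and 11.3 CPM in vehicle (0.90 ± 0.13). CCND1, the ERK-responsive G1 cyclin D1, did not pass the test, at 524, 535 and 642 CPM with 1.25 µM sorafenib and 687, 604 and 799.6 CPM in vehicle (-0.30 ± 0.12, adjusted p = 0.0982), nor did cyclin E2, CCNE2 (0.53 ± 0.25, adjusted p = 0.161) or CDKN1A, the inhibitor p21 (0.15 ± 0.20, adjusted p = 0.637). Their groups overlapped.

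The E2F1 promoter is shown because E2F1 is itself an E2F target and rose with the replication genes. Its window is chr20:33686336-33686635, minus strand, with capitals for the E2F letters TTTCCCGC, TTTGGCGC, TTTCGCGC or TTTGCCGC and for CCAAT, on both strands.
E2F1: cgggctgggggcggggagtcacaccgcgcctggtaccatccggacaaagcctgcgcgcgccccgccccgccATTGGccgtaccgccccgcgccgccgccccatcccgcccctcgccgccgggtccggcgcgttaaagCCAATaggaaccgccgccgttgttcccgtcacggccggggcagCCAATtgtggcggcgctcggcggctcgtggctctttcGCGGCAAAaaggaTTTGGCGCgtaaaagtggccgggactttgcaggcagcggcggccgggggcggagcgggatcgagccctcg
An E2F word on the other strand begins at -33 and TTTGGCGC at -20, and the 3 CCAAT boxes begin at -179, -113 and -70. E2F letters were present in 12 of 23 promoters (52.2%) of the licensing list and in 11 of 32 (34.4%) of the fork list. They occurred in 5.24% of tested protein-coding genes and in 3.33% of all promoters. Among protein-coding genes called higher the share was 8.48%, and among those called lower 5.01%. For the clustered core histones, whose called members mostly fell, it was 5 of 30 (16.7%).

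Clustered core histone genes ran the other way. Of 63 listed, 31 passed the filter on low counts, and of these 13 fell and 1 rose, with a median log2 fold change of -0.84. The share called lower was 8.5% of all tested genes and 10.6% of tested protein-coding genes. Most of their transcripts lack a poly(A) tail, so poly(A)-selected libraries hold mainly the polyadenylated fraction. H2BC21 was at 21.9, 21.6 and 19.3 CPM with 1.25 µM sorafenib and 47.4, 68.5 and 63.6 CPM in vehicle (-1.51 ± 0.13, adjusted p = 9.24e-06), and H2AC6 at 31.3, 33.7 and 42.1 CPM with sorafenib and 99.4, 80.2 and 91.6 CPM in vehicle (-1.34 ± 0.15). H4C8 was at 4.82, 5.33 and 4.05 CPM with 1.25 µM sorafenib and 11.5, 11.8 and 10.5 CPM in vehicle (-1.24 ± 0.19), without overlap in any of the 3. Histone genes of a cluster are near-identical copies, and with no source here for how shared reads were counted, single members are uncertain. The replication-independent variant H2AZ1 rose, at 434, 431 and 472 CPM with 1.25 µM sorafenib and 252, 232 and 247 CPM in vehicle (0.87 ± 0.16), and of 12 linker and variant histones 6 rose and 1 fell, while 3 rose without 1.25 µM replicate 1 or without replicate 2.

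The RNAs of the kinases that sorafenib binds were read next. Of 20 genes for sorafenib target kinases and the RAF pathway 12 were tested, with a median of -0.15, and 0 passed the edgeR test or DESeq2, while 2, BRAF among them, had an unadjusted edgeR p under 0.05. Under library size scaling 3 fell, and 1 fell without 1.25 µM replicate 3. BRAF was at 19.7, 23.2 and 19.6 CPM with 1.25 µM sorafenib and 23.5, 26.4 and 29.3 CPM in vehicle (-0.34 ± 0.13, adjusted p = 0.0882), and FGFR1 at 47.6, 42.3 and 40.01 CPM with sorafenib and 50.3, 53.8 and 51.7 CPM in vehicle (-0.26 ± 0.13, adjusted p = 0.181). The BRAF and FGFR1 groups lay apart, with the treated libraries lower, without reaching the threshold. VEGFA, the ligand of a receptor the drug blocks, fell, at 243, 224 and 219 CPM with 1.25 µM sorafenib and 312, 358 and 327 CPM in vehicle (-0.54 ± 0.11, adjusted p = 0.00399). EGFR, the receptor of epidermal growth factor, also fell, at 702, 751 and 867 CPM with 1.25 µM sorafenib and 1118, 1089 and 1348 CPM in vehicle (-0.62 ± 0.15, adjusted p = 0.00852).

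ERK-responsive and immediate-early genes were mostly higher where they passed the test, but most did not pass it. Of 21 AP-1 and immediate-early genes 7 rose and none fell, with a median of 0.39, and 3 rose without 1.25 µM replicate 2. Of 22 genes for MAPK output and feedback 4 rose (18.2%, beside 12.5% of tested protein-coding genes) and 1 fell, with a median of -0.08. The groups lay apart upward in 5 of them and downward in 5. In this list 2 rose without 1.25 µM replicate 2. Its falls numbered 4 without 1.25 µM replicate 3, and 3 under library size scaling, without number 3 of every group or with no filter. FOSL1, the AP-1 subunit FRA1, was at 1119.8, 1066 and 804 CPM with 1.25 µM sorafenib and 468, 636 and 504 CPM in vehicle (0.89 ± 0.15, adjusted p = 0.000862). DUSP6, the ERK phosphatase that ERK induces, was at 423, 444 and 341 CPM with 1.25 µM sorafenib and 191, 283 and 233 CPM in vehicle (0.78 ± 0.17, adjusted p = 0.00579). NR4A2, an orphan nuclear receptor of the immediate-early class, was at 40.5, 48.03 and 38.6 CPM with 1.25 µM sorafenib, against 11.2, 21.1 and 14.5 CPM in vehicle (1.45 ± 0.19, adjusted p = 0.000153). In each of the 3 the treated libraries all lay above the vehicle libraries. KLF2, a zinc finger factor of the ERK5 pathway, was at 31.1, 36.1 and 32.5 CPM with 1.25 µM sorafenib and 7.71, 16.8 and 15.1 CPM in vehicle (1.35 ± 0.22). The member that fell was SPRED1, an inhibitor of RAS signalling, at 46.5, 53.05 and 47.7 CPM with 1.25 µM sorafenib and 68.8, 60.1 and 75.2 CPM in vehicle (-0.47 ± 0.10). NR4A1 was at 65.7, 77.3 and 87.7 CPM with 1.25 µM sorafenib and 10.5, 28.7 and 38.99 CPM in vehicle (1.57 ± 0.42, adjusted p = 0.0284), with vehicle replicate 1 far below the others. Its adjusted p was between 0.0621 and 0.0778 without 1.25 µM replicate 1, 2 or 3 or vehicle replicate 2, 0.054 without number 3 of every group and 0.115 with no filter on low counts.

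The largest fall among protein-coding genes that averaged 10 CPM or more in one group was that of TXNIP, an arrestin-like protein that restrains glucose uptake and binds thioredoxin and is raised by the glucose sensor MondoA. TXNIP lies on chromosome 1 (GRCh38 chr1:145992435-145996600, minus strand). It was at 119, 113 and 145 CPM with 1.25 µM sorafenib and 623, 455 and 541 CPM in vehicle (-2.10 ± 0.18, adjusted p = 8.28e-06), so that the highest treated library lay far under the lowest vehicle library. ARRDC4, its closest relative and a second MondoA target, was at 22.9, 24.3 and 22.4 CPM with 1.25 µM sorafenib and 53.98, 42.6 and 38.1 CPM in vehicle (-0.95 ± 0.13, adjusted p = 0.000225). MLXIP, which encodes MondoA, was at 79.4, 74.7 and 73.1 CPM with 1.25 µM sorafenib and 94.8, 85.6 and 91.2 CPM in vehicle (-0.26 ± 0.09, adjusted p = 0.0467), and its adjusted p lay between 0.0769 and 0.154 without 1.25 µM replicate 1, 2 or 3 or vehicle replicate 1 or 3. These were the 3 of 7 genes of the glucose response that fell; none rose.

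Both promoters are printed because MondoA binds paired E-box-like words, the carbohydrate response element, near TXNIP. Capitals mark that element, searched as 2 copies of CACGNG with 5 bases of any kind between them, and CCAAT, on both strands, in windows chr1:145996530-145996829 (TXNIP, minus strand) and chr15:97960453-97960752 (ARRDC4, plus strand).
TXNIP: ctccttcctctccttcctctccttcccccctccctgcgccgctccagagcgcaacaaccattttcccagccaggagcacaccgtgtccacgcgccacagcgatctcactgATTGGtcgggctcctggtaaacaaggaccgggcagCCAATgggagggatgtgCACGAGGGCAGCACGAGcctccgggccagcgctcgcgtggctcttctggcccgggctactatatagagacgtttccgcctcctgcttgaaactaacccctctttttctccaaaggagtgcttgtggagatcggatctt
ARRDC4: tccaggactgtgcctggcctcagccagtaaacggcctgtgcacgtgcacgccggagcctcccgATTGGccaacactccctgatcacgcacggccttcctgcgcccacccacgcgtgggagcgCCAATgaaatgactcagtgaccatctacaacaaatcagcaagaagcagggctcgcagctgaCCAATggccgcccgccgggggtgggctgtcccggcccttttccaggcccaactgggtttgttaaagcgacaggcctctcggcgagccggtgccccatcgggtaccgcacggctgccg
Counted from the gene's start, the element in the TXNIP window begins at -88, downstream of 2 CCAAT boxes at -140 and -105. The ARRDC4 window holds 3 CCAAT boxes and not this element. The element occurred in 16 of the 10868 tested protein-coding genes (0.147%) and in 20 of all promoters.

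Other fuel genes changed by less. Both subunits of the mitochondrial pyruvate carrier rose, with MPC1 at 20.99, 20.7 and 16.1 CPM with 1.25 µM sorafenib and 11.1, 10.99 and 11.8 CPM in vehicle (0.77 ± 0.12, adjusted p = 0.000738) and MPC2 at 45.6, 43.6 and 38.3 CPM with sorafenib and 22.3, 25.8 and 23.8 CPM in vehicle (0.83 ± 0.12, adjusted p = 0.000271). Of 22 genes for the tricarboxylic acid cycle and pyruvate entry 7 rose and 1 fell, with a median of 0.11. Its falls numbered 7 without 1.25 µM replicate 3, without number 3 of every group or with no filter, and 3 without vehicle replicate 2, and 4 rose under library size scaling. PDK3, a kinase that inactivates pyruvate dehydrogenase, rose as well, at 8.21, 7.27 and 7.64 CPM with 1.25 µM sorafenib and 3.82, 3.49 and 4.69 CPM in vehicle (0.94 ± 0.16). PFKFB2, which makes the activator of phosphofructokinase, fell, at 59.2, 60.98 and 69.01 CPM with 1.25 µM sorafenib and 98.7, 90.3 and 105 CPM in vehicle (-0.64 ± 0.10). SLC13A5, the plasma membrane citrate importer, was at 5.26, 5.85 and 7.25 CPM with 1.25 µM sorafenib and 17.4, 16.1 and 19.1 CPM in vehicle (-1.52 ± 0.17, adjusted p = 5.57e-05), with all treated libraries under all vehicle libraries.

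Many nuclear respiratory chain genes rose by small amounts. Of 37 complex I subunits 15 rose and none fell, with a median of 0.30, of 25 subunits of complexes II to IV 16 rose and none fell, with a median of 0.33, and of 18 ATP synthase subunits 12 rose and none fell, with a median of 0.46. NDUFS5, an accessory subunit of complex I, was at 269.9, 264 and 192 CPM with 1.25 µM sorafenib and 129, 169.9 and 113 CPM in vehicle (0.82 ± 0.15, adjusted p = 0.00229). COX7B, a subunit of cytochrome oxidase, was at 134, 114 and 87.4 CPM with 1.25 µM sorafenib, against 65.4, 76.4 and 53.7 CPM in vehicle (0.78 ± 0.15). ATP5IF1, the inhibitor of ATP hydrolysis by the synthase, was at 126, 125 and 87.1 CPM with 1.25 µM sorafenib and 66.6, 73.2 and 54.9 CPM in vehicle (0.80 ± 0.15). In each, the groups lay apart by little, with treated replicate 3 the lowest treated library. The counts rested on single libraries. Without 1.25 µM replicate 1 they were 9 for complex I, 7 for complexes II to IV and 4 for ATP synthase, and for the last pair of lists 8 and 4 without 1.25 µM replicate 2, 8 and 7 without vehicle replicate 1, and 8 and 5 without vehicle replicate 3. Under library size scaling they were 9, 7 and 8, and without 1.25 µM replicate 3 there were 2 falls in complex I and 3 in complexes II to IV.

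Of the 13 mRNAs encoded in mitochondrial DNA, 7 rose and none fell, with a median of 0.85. MT-CO1, the catalytic subunit of cytochrome oxidase, was at 63819, 56075 and 34185 CPM with 1.25 µM sorafenib and 22827, 29974 and 15517 CPM in vehicle (1.17 ± 0.24, adjusted p = 0.00454). MT-CO2, another core subunit, was at 23440.0, 19639 and 12656 CPM with 1.25 µM sorafenib and 8794, 11687 and 5651 CPM in vehicle (1.09 ± 0.26, adjusted p = 0.0119). These 2 were the only ones of the 13 whose groups lay apart. In both, replicate 3 held the lowest level of each group, and without 1.25 µM replicate 1 the adjusted p of MT-CO2 was 0.0626. The count of 7 was 1 without 1.25 µM replicate 1, 2 without 1.25 µM replicate 2, 11 without 1.25 µM replicate 3, 3 without vehicle replicate 1 and 2 without vehicle replicate 3, and none rose when genes of low counts were kept in the fit.

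Genes of other protein machinery rose in part. Of 76 tested mitochondrial ribosome genes 28 rose and none fell, with a median of 0.24, while 18 and 17 rose without 1.25 µM replicate 1 and 2, and 18 rose and 4 fell under library size scaling. Of the same list 5 fell without 1.25 µM replicate 3. MRPL16, a protein of the large mitochondrial ribosomal subunit, was at 117, 102 and 93.5 CPM with 1.25 µM sorafenib and 67.3, 72.3 and 63.6 CPM in vehicle (0.62 ± 0.10). Of 36 proteasome genes 14 rose and none fell, with PSMB4 of the core particle at 364, 339 and 300.1 CPM with 1.25 µM sorafenib and 218, 239 and 214 CPM in vehicle (0.58 ± 0.10), while 3 rose under library size scaling, 8 and 7 rose without 1.25 µM replicate 1 and 2, and 3 fell without 1.25 µM replicate 3. Of 36 core spliceosome genes 16 rose and 1 fell, with SNRPB, a core Sm protein, at 386, 391 and 329 CPM with sorafenib and 227, 253 and 209 CPM in vehicle (0.68 ± 0.13). The cytosolic ribosome did not take part to that extent: of 83 tested genes 4 rose and 7 fell, with a median of 0.04. Its rises numbered 1, 2 and 11 without 1.25 µM replicates 1, 2 and 3 and 2, 8 and 1 without vehicle replicates 1, 2 and 3, and its falls 4, 1 and 12 without 1.25 µM replicates 1, 2 and 3 and 4 without vehicle replicate 1.

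Transcript length moved with these groups. The 13436 tested protein-coding genes were split into 4 equal length classes. In the shortest class (207 to 2361 bases) 22.8% rose and 3.78% fell, with a median log2 fold change of 0.17. In the longest class (5408 bases and over) 5.98% rose and 18.9% fell, with a median of -0.15. Measured against the vehicle mean, the shortest class lay above the longest by 0.38, 0.36 and 0.26 on the log2 scale in the libraries with 1.25 µM sorafenib and by 0.01, 0.10 and -0.12 in those with vehicle. With 10 µM sorafenib over vehicle the medians of the shortest and longest classes were 0.01 and 0.04, with 1.25 µM sorafenib plus IACS-010759 over vehicle 0.10 and -0.10, and with 1.25 µM sorafenib over vehicle in OCUG-1 0.19 and -0.03. Of the complex I subunits 25 of 37 fell in the shortest class, of the mitochondrial ribosome 56 of 76 and of the cytosolic ribosome 59 of 83. An offset for length was also fitted in each library, over 17680 genes with an annotated length, after the data were seen. With it, 10 complex I subunits, 8 of complexes II to IV, 9 ATP synthase subunits, 7 mitochondrial mRNAs, 18 mitochondrial ribosome and 10 proteasome genes rose. The same offset left 21 of 25 spindle checkpoint, 24 of 33 centromere, 19 of 25 kinesin, 25 of 28 licensing and 29 of 37 fork genes higher. Of the mucins 6 of 9 were in the longest class, and with the offset 2 fell and 1 rose, while 4 of 14 integrins fell. The origin of the length relation was not tested.

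**Figure D3:**
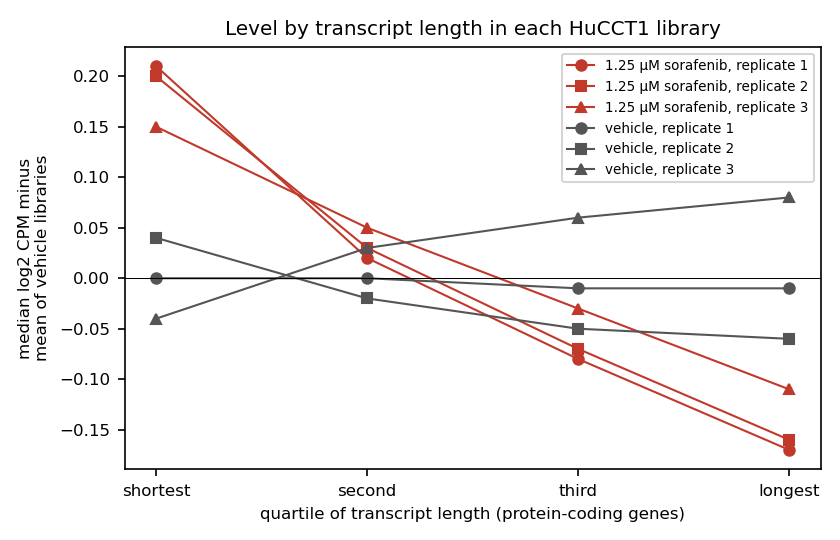
Lines show, for each of the 6 libraries, the median over protein-coding genes of log2 CPM minus the vehicle mean, by transcript length class from shortest to longest. The 3 libraries with 1.25 µM sorafenib slope downward with length, and the 3 with vehicle do so by little or not at all.

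Some amino acid transporters were lower. Of 19 amino acid transporters 6 fell and none rose, with a median of -0.29, while 2 rose with DESeq2 or the length offset. SLC7A1, the importer of arginine and lysine, was at 109, 103 and 111 CPM with 1.25 µM sorafenib and 171, 162 and 193 CPM in vehicle (-0.70 ± 0.11, adjusted p = 0.000491), and SLC6A9, the glycine importer, at 24.8, 28.5 and 32.5 CPM with sorafenib and 42.6, 46.4 and 51.98 CPM in vehicle (-0.71 ± 0.12). SLC38A1 and SLC38A2, importers of glutamine and other neutral amino acids, fell with -0.49 and -0.46. ALDH1L2, the mitochondrial enzyme that burns formyl units of folate, was at 20.5, 22.6 and 27.9 CPM with 1.25 µM sorafenib and 44.2, 46.5 and 61.4 CPM in vehicle (-1.10 ± 0.24), and WARS1, which charges tryptophan tRNA, at 107, 115 and 157 CPM with sorafenib and 229, 204 and 272 CPM in vehicle (-0.90 ± 0.18). The groups of these genes lay apart. Of 24 cytosolic tRNA synthetases and partners 6 fell and 1 rose, and 2 fell without 1.25 µM replicate 1, without 1.25 µM replicate 2 or without vehicle replicate 3, while 13 fell under library size scaling and 10 without number 3 of every group or with no filter. The stress factor GDF15 did not pass the test, at 5.20, 5.45 and 4.55 CPM with 1.25 µM sorafenib and 8.55, 11.2 and 10.7 CPM in vehicle (-0.99 ± 0.47, adjusted p = 0.165). In the endoplasmic reticulum, the chaperone CALR rose (0.63 ± 0.13), SDF2L1, a partner of the chaperone BiP, rose (0.90 ± 0.20), and EDEM1, which sends misfolded glycoproteins to degradation, fell (-0.79 ± 0.18).

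Some genes of sterol synthesis rose. Of 27 genes for cholesterol synthesis and uptake 11 rose and none fell, with a median of 0.37, but 2 and 17 rose when vehicle replicate 1 and vehicle replicate 3 were left out, 7 without 1.25 µM replicate 2, 19 without number 3 of every group and 4 under library size scaling. EBP, a sterol isomerase, was at 212, 196 and 163 CPM with 1.25 µM sorafenib and 80.1, 114 and 90.3 CPM in vehicle (1.01 ± 0.19, adjusted p = 0.00223). INSIG1, the sterol-sensing retention protein and itself a sterol-repressed gene, was at 170.5, 178 and 183 CPM with 1.25 µM sorafenib and 99.3, 116 and 115 CPM in vehicle (0.69 ± 0.10). ABCG1, an LXR-induced exporter of cholesterol, was at 0.689, 1.22 and 1.46 CPM with 1.25 µM sorafenib and 4.56, 4.12 and 4.48 CPM in vehicle (-1.94 ± 0.39, adjusted p = 0.00348), with no overlap. Of 10 genes for cholesterol efflux and LXR targets 2 fell and none rose, with a median of -0.11, and 1 fell without 1.25 µM replicate 1 or 2, without vehicle replicate 1 or 2 or with the length offset. Their summed level was 842, 902 and 826 CPM with 1.25 µM sorafenib and 746, 766 and 720.1 CPM in vehicle.

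Some integrins and mucins fell. Of 14 integrins 6 fell and none rose, with a median of -0.24. ITGB1, the shared beta subunit, lies on chromosome 10 (GRCh38 chr10:32900319-33005792, minus strand) and was at 749, 869.6 and 977 CPM with 1.25 µM sorafenib and 1286, 1237 and 1571 CPM in vehicle (-0.66 ± 0.12, adjusted p = 0.00167). ITGA2, its collagen-binding partner, was at 119.6, 142 and 223 CPM with 1.25 µM sorafenib and 311, 244 and 362 CPM in vehicle (-0.92 ± 0.18), and ITGB8, which activates TGF-beta, at 16.7, 16.5 and 22.3 CPM with sorafenib and 35.3, 25.9 and 36.2 CPM in vehicle (-0.81 ± 0.15). All treated libraries of these 3 lay under all vehicle libraries, with replicate 3 the highest of each group. ITGB1-DT, a noncoding transcript diverging from ITGB1, fell too, at 6.70, 6.36 and 5.45 CPM with 1.25 µM sorafenib and 13.96, 14.2 and 12.01 CPM in vehicle (-1.12 ± 0.17). Of 9 tested mucins 5 fell and none rose, with the transmembrane mucins MUC4 at 38.2, 37.4 and 30.5 CPM with 1.25 µM sorafenib and 59.8, 59.4 and 55.9 CPM in vehicle (-0.72 ± 0.10) and MUC20 at 12.8, 14.5 and 14.05 CPM with sorafenib and 36.4, 28.1 and 23.1 CPM in vehicle (-1.08 ± 0.15). Only 2 mucins fell without vehicle replicate 1 and 3 without 1.25 µM replicate 1 or 2 or vehicle replicate 3. CLDN1, a tight junction protein, fell with -0.68, and THBD, the thrombin-binding anticoagulant receptor thrombomodulin, with -1.01.

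Keratins moved in both directions. KRT8, a keratin of simple epithelium, was at 2744, 2522 and 2171 CPM with 1.25 µM sorafenib and 1293, 1658 and 1479 CPM in vehicle (0.75 ± 0.17, adjusted p = 0.00668), and its partner KRT18 at 1528, 1478 and 1099 CPM with sorafenib and 847, 1004 and 825 CPM in vehicle (0.62 ± 0.14). KRT17, a keratin of basal and injured epithelium, was at 36.8, 37.4 and 35.4 CPM with 1.25 µM sorafenib and 54.3, 55.98 and 61.03 CPM in vehicle (-0.64 ± 0.10), and KRT80 at 160.4, 164 and 208 CPM with sorafenib and 235, 250.1 and 354 CPM in vehicle (-0.66 ± 0.14). VIM, the mesenchymal intermediate filament, rose to 454, 424 and 332 CPM with 1.25 µM sorafenib, against 161, 216 and 167 CPM in vehicle (1.15 ± 0.14, adjusted p = 7.43e-05). Among 9 tested genes of the epithelial-mesenchymal transition, however, only 1 rose and 1 fell, with a median of -0.0. SOX4, a progenitor factor of bile ducts, fell, at 121, 122 and 118 CPM with 1.25 µM sorafenib and 229, 207 and 219 CPM in vehicle (-0.86 ± 0.12), and the surface protein EPCAM rose (0.45 ± 0.10). Of 16 tested keratins 5 rose and 2 fell, while 2 rose under library size scaling or without 1.25 µM replicate 1 or 2 or vehicle replicate 1, and 3 without vehicle replicate 3, with no filter or with the length offset.

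Some retinoid genes were lower. Of 19 tested genes for retinoid uptake and response 6 fell and 1 rose, with a median of -0.16. STRA6, the cell surface receptor that takes up retinol, was at 19.7, 21.5 and 15.3 CPM with 1.25 µM sorafenib and 57.6, 47.5 and 41.5 CPM in vehicle (-1.37 ± 0.19, adjusted p = 0.000295). DHRS3, the retinal reductase induced by retinoic acid, was at 108, 118 and 123 CPM with 1.25 µM sorafenib and 182, 174 and 169 CPM in vehicle (-0.59 ± 0.09), and RARRES1, another retinoid-responsive gene, at 5.39, 4.82 and 4.61 CPM with sorafenib and 13.2, 10.3 and 8.08 CPM in vehicle (-1.10 ± 0.22). RARG, a retinoic acid receptor, fell with -0.58. None of these 4 genes had overlapping groups. TNFRSF11B, the decoy receptor osteoprotegerin, which binds RANKL and TRAIL, was among the largest falls, at 14.9, 15.1 and 19.1 CPM with 1.25 µM sorafenib and 67.2, 41.5 and 46.2 CPM in vehicle (-1.66 ± 0.17, adjusted p = 2.55e-05). KDM7A, a histone demethylase, was at 6.02, 5.41 and 4.50 CPM with 1.25 µM sorafenib and 13.2, 13.3 and 14.2 CPM in vehicle (-1.35 ± 0.20), and TNFSF15, a cytokine of the TNF family, at 4.95, 5.17 and 4.27 CPM with sorafenib and 11.6, 12.2 and 12.5 CPM in vehicle (-1.33 ± 0.27).

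Immune genes changed in both directions. CSF2, the growth factor GM-CSF, was at 51.5, 48.7 and 41.6 CPM with 1.25 µM sorafenib and 15.9, 23.4 and 24.7 CPM in vehicle (1.15 ± 0.15, adjusted p = 0.000184), while LCN2, an iron-sequestering protein of inflamed epithelium, was at 165, 156 and 124 CPM with 1.25 µM sorafenib and 335, 367 and 245 CPM in vehicle (-1.09 ± 0.14, adjusted p = 0.000153). The neutrophil chemokine CXCL5 was at 166, 185 and 191 CPM with 1.25 µM sorafenib, against 320.2, 260.0 and 277 CPM in vehicle (-0.66 ± 0.13). So 1 of these 3 secreted factors was higher and 2 were lower, each without overlap. Of 15 genes for MHC class I presentation 4 rose and none fell (5 fell without 1.25 µM replicate 3 or without number 3 of every group, 3 with no filter, and 2 with DESeq2 or library size scaling), among the rises ERAP2, which trims peptides, at 266, 284 and 238 CPM with 1.25 µM sorafenib and 156, 159 and 132 CPM in vehicle (0.82 ± 0.11), and the immunoproteasome subunits PSMB8 (0.61 ± 0.10) and PSMB9 (0.60 ± 0.10). IFI6, an interferon-induced gene, did not pass the test, at 428, 395 and 552 CPM with 1.25 µM sorafenib and 529.6, 409 and 408 CPM in vehicle (0.03 ± 0.23, adjusted p = 0.943). Of 21 NRF2 targets and pentose phosphate genes 4 rose and 1 fell, with NQO1, a quinone reductase, at 0.50, the peroxidase PRDX1 at 0.75 and the sugar phosphate enzyme TALDO1 at 0.47.

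**Figure D4:**
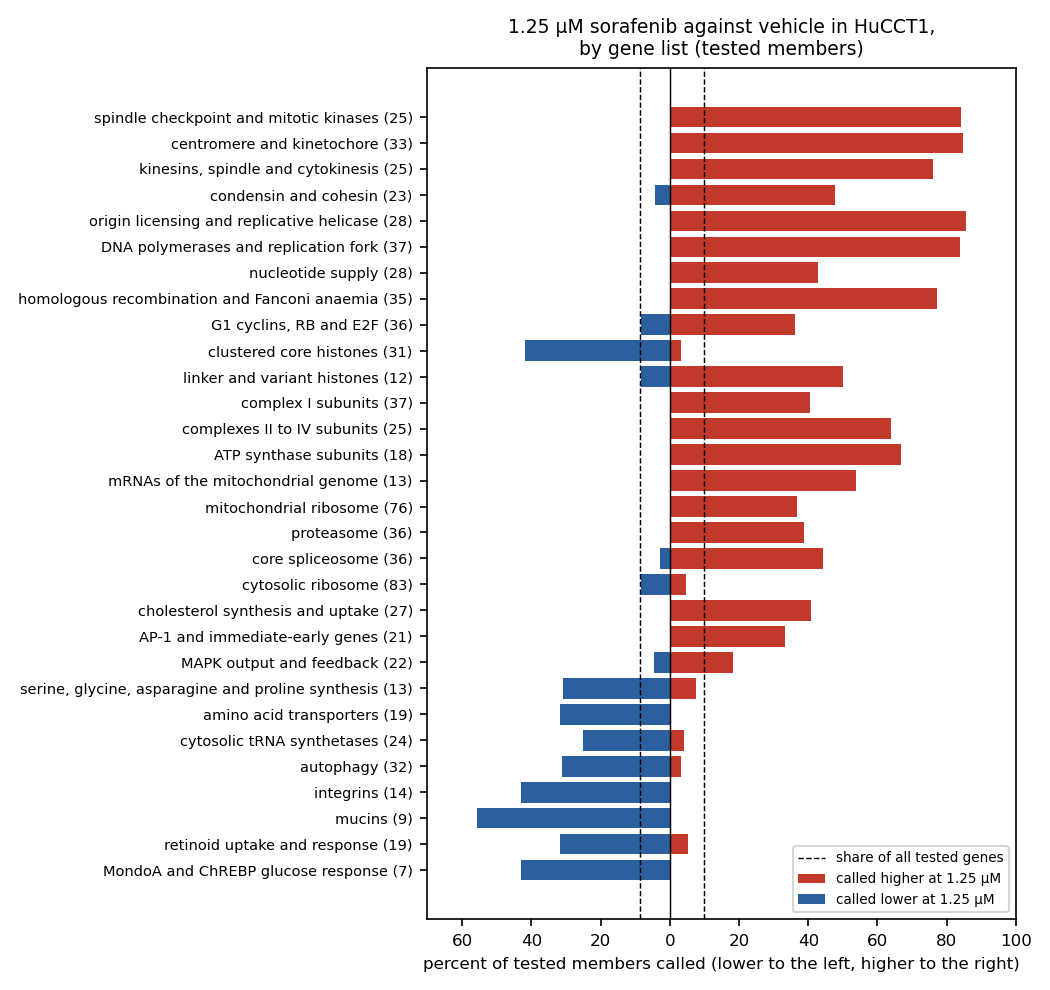
Bars give, for 30 gene lists, the percent of tested members called higher with 1.25 µM sorafenib (right) and lower (left). Dashed lines mark the shares over all tested genes, 9.98% and 8.5%. Over tested protein-coding genes the shares were 12.5% and 10.6%. The lists of mitosis and replication extend far to the right (85.7% for licensing), and mucins, integrins and clustered histones extend to the left (55.6% for mucins).

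Noncoding RNAs appeared at both ends. NR4A1AS, annotated opposite NR4A1 on chromosome 12 (GRCh38 chr12:52058459-52059503, minus strand), was at 12.9, 14.6 and 8.82 CPM with 1.25 µM sorafenib and 0.247, 2.17 and 1.48 CPM in vehicle (3.30 ± 0.63, adjusted p = 0.00491). Whether strand was used in counting is not known from the labels, so its reads and those of NR4A1 cannot be told apart. MIR924HG, the host transcript of a microRNA, was at 11.8, 9.44 and 7.08 CPM with 1.25 µM sorafenib and 2.44, 3.49 and 3.34 CPM in vehicle (1.62 ± 0.20), and the mitochondrial histidine tRNA MT-TH at 29.6, 22.5 and 13.4 CPM with sorafenib and 5.02, 10.04 and 4.19 CPM in vehicle (1.79 ± 0.33). Falls included TRMT61A-DT at 4.26, 3.32 and 4.72 CPM with 1.25 µM sorafenib and 13.8, 11.4 and 11.04 CPM in vehicle (-1.57 ± 0.19) and LINC02331 at 8.02, 11.3 and 10.7 CPM with sorafenib and 22.98, 23.9 and 26.3 CPM in vehicle (-1.27 ± 0.16). The groups of all 5 lay apart.

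To ask which low-dose levels differ from those at 10 µM, the 2 doses were tested against each other within the fit over all 12 HuCCT1 libraries. Of 19576 genes 5518 (28.2%) differed, 2691 (13.7%) higher and 2827 (14.4%) lower with 1.25 µM than with 10 µM sorafenib. Without 1.25 µM replicate 1 the count was 3567 and without replicate 2 it was 3472, and library size scaling gave 1280 higher and 4409 lower. The lists of mitosis genes passed this test to differing extents. In the kinesin list of 25 genes none was higher and 2 were lower with 1.25 µM. Among 25 spindle checkpoint genes 2 were higher and 4 lower, and among 33 centromere genes 3 were higher and 5 lower. The 10 µM libraries were split in these lists. The kinesin list summed to 3486, 3666 and 2136 CPM with 10 µM and to 2517, 2562 and 2818 CPM with 1.25 µM. In all 3 lists 10 µM replicates 1 and 2 lay above every library with 1.25 µM, and 10 µM replicate 3 lay below. Condensin and cohesin had 1 higher and 8 lower of 23 genes, and the anaphase-promoting complex 3 higher and 3 lower of 19. Of 28 licensing genes 10 were higher and 3 lower with 1.25 µM. MCM5, a helicase subunit, was at 136, 128 and 131 CPM with 1.25 µM and 69.03, 74.8 and 64.9 CPM with 10 µM sorafenib (log2 difference 0.92 ± 0.09, adjusted p = 1.57e-05), while HJURP did not pass this test (0.27 ± 0.15, adjusted p = 0.196).

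Interferon genes, histones and mitochondrial mRNAs differed between the doses. Of 36 interferon response genes 32 were higher with 1.25 µM than with 10 µM sorafenib and none lower. Against vehicle, 4 of the 36 rose and 1 fell with 1.25 µM, with a median of 0.21. The share that rose was 11.1%, beside 9.98% of all tested genes and 12.5% of tested protein-coding genes. Without number 3 of every group 10 rose and 8 fell. IFI6 was at 428, 395 and 552 CPM with 1.25 µM and 118, 105 and 55.1 CPM with 10 µM (2.30 ± 0.24, adjusted p = 3.8e-05). CXCL10, an interferon-induced chemokine, was at 9.65, 12.4 and 10.9 CPM with 1.25 µM and 3.58, 4.58 and 2.56 CPM with 10 µM (1.62 ± 0.24). Of 31 tested clustered histones 17 were higher and none lower with 1.25 µM, and H2BC21 was at 21.9, 21.6 and 19.3 CPM with 1.25 µM and 6.16, 6.99 and 7.46 CPM with 10 µM (1.61 ± 0.14). All 13 mitochondrial mRNAs were higher with 1.25 µM than with 10 µM, MT-CO1 being at 23745, 30650.1 and 21051 CPM with 10 µM. STRA6 was lower at the higher dose still, at 5.72, 5.93 and 3.35 CPM with 10 µM (1.90 ± 0.21), and TXNIP was at 96.4, 85.2 and 147 CPM with 10 µM (0.20 ± 0.17, adjusted p = 0.414). TNFRSF11B and CDKN2B were lower with 1.25 µM than with 10 µM, where they stood at 33.04, 33.9 and 25.6 CPM (-0.92 ± 0.17) and 152, 146 and 134 CPM (-0.67 ± 0.10).

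The response of HuCCT1 was then set against that of OCUG-1 to the same dose, by testing the difference between the log2 fold changes of the lines over all 24 libraries. Of 22944 genes 2214 (9.65%) differed, 1076 (4.69%) with a higher and 1138 (4.96%) with a lower log2 fold change in HuCCT1. Of 3605 genes called in HuCCT1 and tested here, 1254 also differed between the lines. The count of 2214 was between 1209 and 1552 when any 1 of HuCCT1 1.25 µM replicates 1 and 2, HuCCT1 vehicle replicates 1 and 3, OCUG-1 1.25 µM replicates 2 and 3 and OCUG-1 vehicle replicates 1 and 3 was left out, and 3385 without HuCCT1 1.25 µM replicate 3.

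The rise of mitosis and replication genes was larger in HuCCT1. Among the 25 spindle checkpoint genes 13 had a higher log2 fold change in HuCCT1 and none a lower one, as did 19 of 33 centromere, 17 of 25 kinesin, 18 of 28 licensing and 22 of 37 fork genes, with none lower in any list. Their medians in OCUG-1 were 0.08, 0.07, 0.00, 0.08 and 0.12. HJURP was at 176, 139 and 117 CPM with 1.25 µM sorafenib and 172, 133 and 138 CPM in vehicle in OCUG-1, and the lines differed by 1.65 ± 0.21 (adjusted p = 1.16e-05). E2F1 was at 57.2, 63.9 and 62.3 CPM with 1.25 µM sorafenib and 58.01, 57.3 and 58.9 CPM in vehicle in OCUG-1 (difference 1.16 ± 0.13, adjusted p = 1.41e-06), and CDKN2B at 12.3, 17.2 and 13.7 CPM with sorafenib and 13.5, 14.02 and 11.9 CPM in vehicle (difference -1.47 ± 0.16, adjusted p = 1.09e-06). In OCUG-1 the groups of these 3 genes overlapped. ITGB1 had opposite signs, with 0.58 ± 0.14 in OCUG-1 (adjusted p = 0.00933) and a difference of -1.24 ± 0.20 (adjusted p = 0.000195), and so had SPRED1, with 1.00 ± 0.13 in OCUG-1 and a difference of -1.47 ± 0.18. DHRS3 rose in OCUG-1 (0.81 ± 0.11) and differed by -1.40 ± 0.15. Of 22 genes for MAPK output and feedback 1 had a higher and 8 a lower log2 fold change in HuCCT1, with a median of 0.50 in OCUG-1. Of 21 AP-1 and immediate-early genes 4 had a higher and none a lower one, with a median of 0.03 in OCUG-1.

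Mitochondrial and glucose genes were set against OCUG-1 in the same way. Among 37 complex I subunits 2 had a higher and 2 a lower log2 fold change in HuCCT1, with a median of 0.37 in OCUG-1, and among 76 mitochondrial ribosome genes none was higher and 3 were lower. Of the 13 mitochondrial mRNAs 3 had a higher log2 fold change in HuCCT1 and none a lower one, with a median of 0.85 in HuCCT1 and -0.08 in OCUG-1. TXNIP had a log2 fold change of -1.33 ± 0.24 in OCUG-1, where it was at 17.1, 23.1 and 17.5 CPM with 1.25 µM sorafenib and 43.6, 63.1 and 39.4 CPM in vehicle, and the difference between the lines was -0.77 ± 0.32 (adjusted p = 0.136), which did not pass the test. For the cytosolic ribosome 29 of 83 genes had a lower log2 fold change in HuCCT1 and none a higher one.

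**Figure D5:**
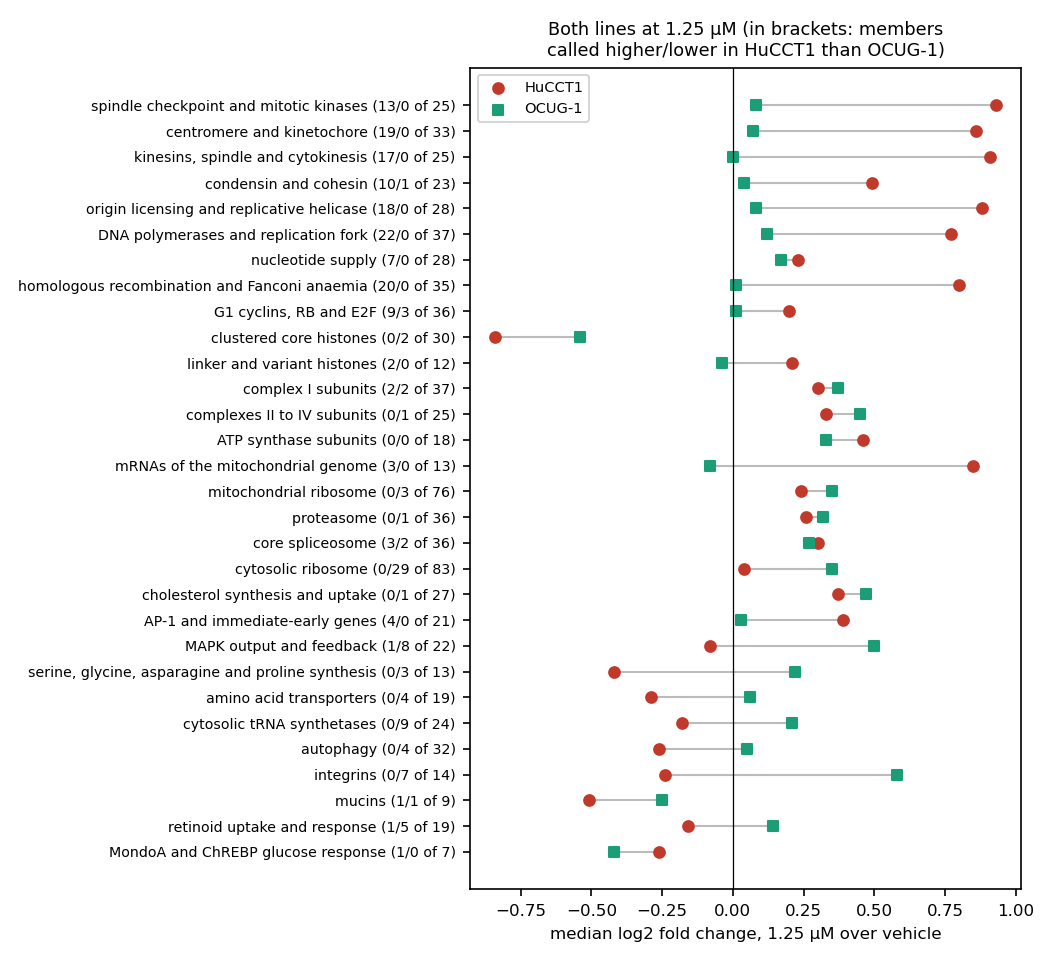
Each row is a gene list, with the median log2 fold change of its members at 1.25 µM sorafenib over vehicle in HuCCT1 and in OCUG-1 on the horizontal axis, and in brackets how many members passed the test of the difference between the lines. The lists of mitosis and replication lie far to the right in HuCCT1 (0.93 for the spindle checkpoint list) and near 0 in OCUG-1, and the nuclear complex I list lies at 0.30 in HuCCT1 and 0.37 in OCUG-1.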

How the data were processed

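The labels describe total RNA taken with TRIzol, TruSeq mRNA libraries and NovaSeq sequencing. The authors deposited raw counts per gene, made, per the submitters' processing notes, with bcl2fastq, fastp 1.3.2, HISAT2 2.2.2 and featureCounts of Subread 2.1.1 on GRCh38; their notes also name MultiQC 1.33, R 4.4.1 and DESeq2 1.42.1. Neither the annotation release nor the strand setting is stated in the sources used here. Symbols were found for 42179 of 78724 gene IDs (61481 were in the name table), and GENCODE 29, which held 57302, gave coordinates, biotypes and transcript lengths. Counts from the deposited table were analysed in R 4.3.3 with edgeR 4.0.16: filterByExpr with a minimum count of 10, TMM scaling, glmQLFit (robust) and glmQLFTest over all 12 HuCCT1 libraries (24 for the difference between lines), two-sided, with Benjamini-Hochberg adjustment over all tested genes and a threshold of 0.05. The dispersion gave a biological coefficient of variation of 0.137. CPM values use TMM library sizes; a standard error is the log2 fold change over the square root of its F statistic. The code was tested on simulated counts. DESeq2 1.42.0, other scalings and left-out libraries were alternatives. P-values measure the spread between cultures of 1 line. The members and gene lists were chosen with earlier results of these data known. Genes were named by a fixed rule: the 12 largest rises and falls among called protein-coding genes with 10 CPM or more and libraries apart, up to 6 called members per list and members with a stated role, the 5 largest noncoding changes each way (5 CPM or more), the 5 largest line differences each way, and 15 panel genes. Some items are not reported here. Genes that kept their call in most alternatives were preferred, a choice made after values were seen. Not every gene that met the rule is described, and some described genes lost their call in several alternatives. Promoter windows come from RefSeq.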

Additional observations from a re-analysis of the deposited data

Results flagged for a closer look

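The genes below, called in HuCCT1 and averaging 10 CPM or more in one of its groups, had some of the largest differences between the log2 fold change of HuCCT1 and that of OCUG-1 at 1.25 µM sorafenib, tested as an interaction with edgeR over 24 libraries. Each value is HuCCT1 minus OCUG-1.

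TNFSF15, a cytokine of the TNF family, differed by -3.04, with 2.56, 2.33 and 2.13 CPM with 1.25 µM sorafenib and 1.24, 0.46 and 0.456 CPM in vehicle in OCUG-1 (adjusted p = 0.000136). PRSS1 and PRSS2, trypsinogens and close paralogs whose reads may be shared, differed by -2.57 and -2.93. PRSS1 was at 6.07, 6.55 and 4.25 CPM with 1.25 µM sorafenib and 2.53, 2.13 and 2.68 CPM in vehicle in OCUG-1, and in HuCCT1 at 8.33, 10.2 and 7.98 CPM with 1.25 µM sorafenib and 24.1, 24.4 and 19.6 CPM in vehicle. NT5E, the ectonucleotidase CD73, differed by -2.44, with 19.4, 33.3 and 35.3 CPM with 1.25 µM sorafenib and 8.48, 12.9 and 9.06 CPM in vehicle in OCUG-1. These genes were higher with 1.25 µM sorafenib in every OCUG-1 library than in any vehicle library, and lower in HuCCT1.

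CXCL10, an interferon-induced chemokine, differed by 2.48 (adjusted p = 0.00646), and it was under 1 CPM in every OCUG-1 library. EID3, a component of the SMC5 and SMC6 complex, differed by 2.61, with 11.4, 12.6 and 11.3 CPM with 1.25 µM sorafenib and 28.97, 31.8 and 33.1 CPM in vehicle in OCUG-1. NR4A1AS differed by 2.61, with 22.9, 14.01 and 16.7 CPM with 1.25 µM sorafenib and 8.77, 11.3 and 12.99 CPM in vehicle in OCUG-1. MUC16, a large transmembrane mucin, differed by 2.56, with 0.128, 0.229 and 0.213 CPM with 1.25 µM sorafenib and 1.00, 1.78 and 1.60 CPM in vehicle in OCUG-1. It was lower with sorafenib in HuCCT1 too (-0.31), and its low OCUG-1 levels make the size of the difference uncertain. VEGFC, a lymphatic growth factor, differed by 4.52, with 0, 0 and 0 CPM with 1.25 µM sorafenib and 0.118, 0 and 0.171 CPM in vehicle in OCUG-1, so its fitted value depends on the prior count and is no measure of size. In HuCCT1 itself CXCL10 (1.04), EID3 (1.20), NR4A1AS (3.30) and VEGFC (0.42) were called higher, with overlapping groups for EID3. The HuCCT1 calls of NT5E, VEGFC, EID3 and MUC16 were lost without 1.25 µM replicate 1 (adjusted p = 0.0815, 0.0587, 0.134 and 0.142), without 1.25 µM replicate 2 and without vehicle replicate 3, those of NT5E, EID3 and MUC16 also without vehicle replicate 1, and that of PRSS2 without 1.25 µM replicate 2 (adjusted p = 0.13) or vehicle replicate 2 (0.0998).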

How the results depend on the processing

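The 3616 calls became 4120 with DESeq2, 3588 with its size factors, 4223 with library size scaling, 3780 with no filter, 2616 with only the compared groups, 3627 with the mitochondrial genome left out and 3019 with the length offset, which was chosen after seeing the data. Leaving out 1 library gave 1710 to 4749 calls and leaving out number 3 of every group 5956. For the difference between lines (2214) the settings gave 1926 to 2990 and left-out libraries 1209 to 3385. For 1.25 µM against 10 µM (5518) they gave 3841 to 6004 and 3472 to 6284. In these settings no gene called in both changed direction. Under library size scaling 16 spindle checkpoint, 23 centromere, 17 kinesin, 17 licensing and 28 fork genes rose. Of 374 genes followed singly, DESeq2 kept the call of 374, library size scaling 312 and the length offset 318, and leaving out 1.25 µM replicate 2 kept the fewest (257). Among genes not called, CDKN1A changed sign without 1.25 µM replicate 3 (-0.02) and without vehicle replicate 1 (-0.09, the lowest of its left-out values, the highest being 0.45), and IFI6 without number 3 of every group (-0.19), with library size scaling (-0.11), no filter (-0.01) or the length offset (-0.12), without 1.25 µM replicate 3 (-0.13, its highest left-out value being 0.17) and without vehicle replicate 2 or 3 (both -0.03). The causes were not tested. With the replicate number as a block 4295, 2291 and 6004 genes were called, NR4A1 was not (adjusted p = 0.0683), 11 mitochondrial mRNAs rose, and 10 tRNA synthetase, 4 tricarboxylic acid cycle, 3 mitochondrial ribosome and 3 MHC class I genes fell. Same-numbered libraries deviated together with correlations of 0.094, 0.183 and 0.396. Replicate 1 with 1.25 µM correlated better with vehicle replicate 2 (0.213), so the numbers are not taken to pair the samples. Pairs of a replicate 3 with replicate 1 or 2 of the other group gave -0.276, -0.211, -0.119 and -0.321. Deviations were taken from each group's own mean. A positive value between replicate 3 of each group therefore forces some of these to be negative, and they are no separate evidence. By the value of 0.396 replicate 3 deviated alike in both groups, and the main fit holds no term for it. Counts of 18238834 to 28036008 per library limit genes of few counts.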
